A study of Homo sapiens with 9 samples.

Results

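Knockdown of BRD1 by small interfering RNA (siRNA) was compared with control siRNA in HEK293T cells, in 3 pairs of Affymetrix U219 arrays, and the genes that moved the same way in every pair are described. The 3 BRD1 siRNA and 3 control siRNA arrays make up 6 of the 9 arrays of the series. A gene was taken as a shared gene if all 3 BRD1 siRNA arrays lay on one side of their own control array by at least 1.2-fold, which is 0.263 on the log2 scale, and also on that side of the array of untreated cells by at least 1.2-fold. Of 18239 genes measured, 17 met this rule, 3 of them higher (0.0164% of all) and 14 lower (0.0768%) with BRD1 siRNA. The values that chose these genes are given as a description, without a test, apart from BRD1, which the siRNA targets.

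HEK293T is a human embryonic kidney cell line that carries the SV40 large T antigen. Cells received a pool of siRNAs against BRD1 from a Qiagen kit (1 array) or from a Dharmacon kit (2 arrays, numbered 1 and 2), or the matching control, which the labels call mock and the study's supplementary methods call scrambled siRNA. The other arrays were 1 each of cells with stable or episomal expression of tagged BRD1-S, the same with tagged BRD1-L, and untreated cells. The study describes separate knockdown experiments, but the labels tie no array to a culture, so p-values measure only the spread between these arrays, which may be partly technical.

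BRD1 is a scaffold protein with a bromodomain, PHD fingers and a PWWP domain, which read marks on histones. It joins MYST-family histone acetyltransferases such as KAT7 and KAT6A with the small subunits ING4, ING5 and MEAF6, and the assembled complex acetylates histone H3. An siRNA guides the Argonaute protein AGO2 to a matching messenger RNA, which is then cut, so that a lower transcript level of the target is the direct readout of the knockdown. Pools of siRNA can also lower other transcripts through partial matches, and double-stranded RNA can switch on interferon-stimulated genes.

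BRD1 itself, on chromosome 22 (GRCh38.p14, chr22:49773278-49827873), was at 7.07, 6.94 and 6.75 log2 intensity with BRD1 siRNA in the Qiagen, Dharmacon 1 and Dharmacon 2 pairs, against 7.82, 7.79 and 7.75 with control siRNA and 7.61 in untreated cells. The groups did not overlap, and every BRD1 siRNA array was also below the untreated array. The mean difference was -0.86 (limma SE 0.08, n = 3 pairs), so that the signal with BRD1 siRNA was 54.9% of that with control siRNA. The limma fit with the pair as a block gave BRD1 the smallest p of all genes, 5.76e-05, with an adjusted p of 0.607 after Benjamini-Hochberg adjustment over all genes. The exact sign-flip permutation test over the 3 pairs gave a two-sided p of 0.25, the smallest that 3 pairs allow.

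BRD1 is read by 3 probe sets, all lower in every pair but not by the same amount. Probe set 11731093 differed by -1.05, -1.29 and -1.23 in the Qiagen, Dharmacon 1 and Dharmacon 2 pairs, and probe set 11731092 by -0.81, -0.88 and -0.56. Probe set 11748646 differed by -0.40 and -0.36 in the Qiagen and Dharmacon 1 pairs and by -1.21 in the Dharmacon 2 pair. This last probe set is also the only one of the 3 that was raised in the overexpressing cells, at 11.11 with BRD1-S and 11.27 with BRD1-L, against 6.33 in untreated cells. The other probe sets lay within 0.12 of untreated cells there. The size of the knockdown thus differed by probe set, and the largest pair difference of the gene mean, -0.998, belonged to the Dharmacon 2 pair.

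**Figure D1:**
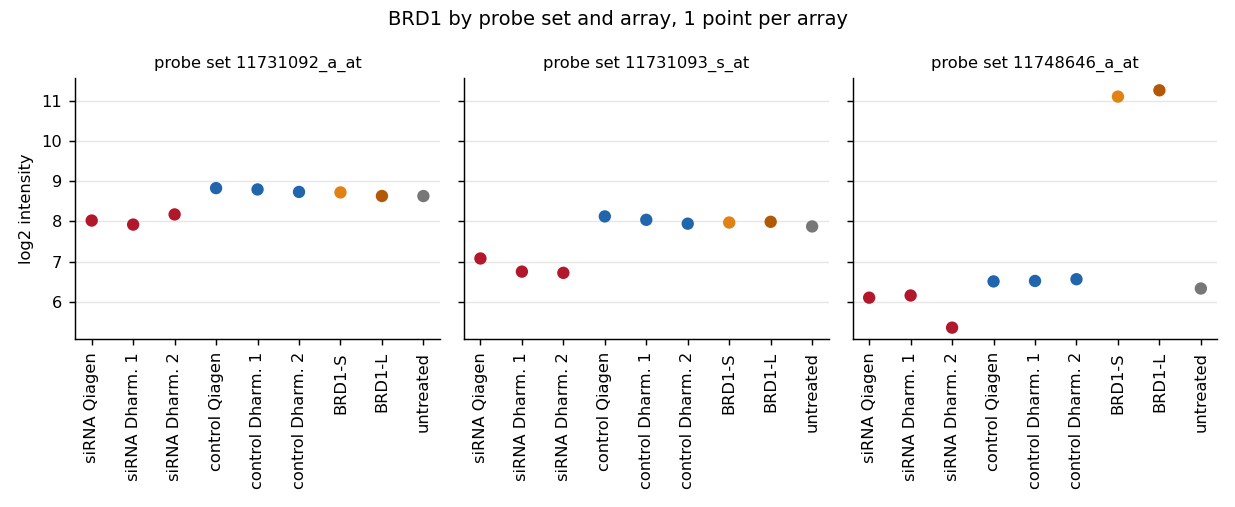
Log2 intensity (y axis) of the 3 BRD1 probe sets, 1 panel each, on the 9 arrays (x axis), 1 point per array, with BRD1 siRNA in red, control siRNA in blue, BRD1-S and BRD1-L cells in orange and brown and untreated cells in grey. All red points lie below the blue ones, and in the right panel the BRD1-S and BRD1-L cells stand at 11.11 and 11.27.

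The bases before the start of 3 of the shared genes are shown for the gene that was targeted, for the gene with the next lowest level relative to control, and for the interferon-stimulated gene among those that were higher. The windows are the 250 bases before the RefSeq start in GRCh38.p14, printed in the direction of the gene, with capitals where a motif was found on either strand. For BRD1 and RIBC2 the motifs searched were the GC box, with the letters GGGCGG, the CCAAT box and the core bound by ETS factors, with the letters CCGGAAG. For IFIT1 the capitals mark the core of the interferon-stimulated response element, a repeat of GAAA with any 2 bases between the copies. The BRD1 window lies at chr22:49827874-49828123 on the minus strand, the RIBC2 window at chr22:45413443-45413692 on the plus strand and the IFIT1 window at chr10:89392373-89392622 on the plus strand.
BRD1: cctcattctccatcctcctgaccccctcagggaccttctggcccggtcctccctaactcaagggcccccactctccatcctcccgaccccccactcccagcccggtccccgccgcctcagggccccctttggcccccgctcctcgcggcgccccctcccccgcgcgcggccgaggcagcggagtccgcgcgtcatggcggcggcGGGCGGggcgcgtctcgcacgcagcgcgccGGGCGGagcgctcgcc
RIBC2: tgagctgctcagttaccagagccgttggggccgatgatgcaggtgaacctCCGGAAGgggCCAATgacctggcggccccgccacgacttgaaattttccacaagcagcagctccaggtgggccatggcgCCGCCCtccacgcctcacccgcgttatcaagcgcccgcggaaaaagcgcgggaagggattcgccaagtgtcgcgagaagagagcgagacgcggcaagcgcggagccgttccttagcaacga
IFIT1: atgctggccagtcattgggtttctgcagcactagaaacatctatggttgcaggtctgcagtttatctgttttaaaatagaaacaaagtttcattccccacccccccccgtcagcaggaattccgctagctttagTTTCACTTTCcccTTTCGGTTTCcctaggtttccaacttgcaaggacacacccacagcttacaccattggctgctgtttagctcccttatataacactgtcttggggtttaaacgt

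Of the 17 shared genes, 15 were matched to a RefSeq window. GGGCGG was found before 8 of these 15 and before 57.3% of the 14492 genes with a window. CCAAT was found before 6 of 15, against 34.6% of all, and CCGGAAG before 3 of 15 (RIBC2, SAR1B and CSNK1G1), against 12.1% of all. CACGTG was before none of the 15 and before 7.83% of all. TATAAA was before 2 of 15 and 8.79% of all, and the core of the interferon-stimulated response element before IFIT1 alone and 2.57% of all. With 15 windows, these counts describe the shared genes and do not set them apart.

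The 4 shared genes with the lowest level relative to control were BRD1, RIBC2, TBC1D5 and PGGT1B, all past 1.5-fold in the mean of the pairs. TBC1D5, a GTPase-activating protein of RAB7 that acts on the retromer in endosomes, was at 6.94, 7.39 and 7.54 with BRD1 siRNA in the Qiagen, Dharmacon 1 and Dharmacon 2 pairs, against 8.06, 7.98 and 8.01 with control siRNA and 8.003 in untreated cells. The controls and untreated cells lay within 0.08 of each other, and every BRD1 siRNA array was below them, lowest in the Qiagen pair. The mean difference was -0.72 (SD of the pair differences 0.34), or 60.5% of the control signal, and both probe sets were past 1.2-fold in every pair.

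PGGT1B, the beta subunit of an enzyme that attaches lipid anchors to proteins, was at 6.52, 6.86 and 6.68 with BRD1 siRNA, against 7.31, 7.38 and 7.14 with control siRNA and 7.33 in untreated cells. The groups did not overlap, and the mean difference was -0.59 (SD 0.18), or 66.5% of the control signal. RIBC2, a protein inside the microtubules of cilia and flagella, was at 5.15, 5.71 and 5.54 with BRD1 siRNA, against 6.15, 6.71 and 5.96 with control siRNA and 6.15 in untreated cells. Its groups did not overlap either, although the Dharmacon 1 control stood 0.56 above untreated cells. RIBC2 differed by -0.81 in the mean (SD 0.34) and is read by 1 probe set.

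SAR1B, the small GTPase that starts the COPII coat on the endoplasmic reticulum, was at 9.22, 9.32 and 9.48 with BRD1 siRNA, against 9.60, 9.64 and 9.93 with control siRNA and 9.82 in untreated cells, with no overlap. Its close relative SAR1A, at 8.99, 8.97 and 9.05 with BRD1 siRNA against 9.39, 9.31 and 9.31 with control siRNA and 9.44 in untreated cells, fell just outside the rule with a smallest difference of 0.261. One of the SAR1B probe sets is of a type that may read related transcripts, so the 2 genes may not be fully separate readings.

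FHIP2A, a subunit of an adaptor that ties vesicles to dynein, was at 6.59, 6.61 and 6.55 with BRD1 siRNA, against 6.85, 6.88 and 7.05 with control siRNA and 7.01 in untreated cells. KICS2, a subunit of the KICSTOR complex that holds the amino acid sensing machinery on the lysosome, was at 5.91, 6.14 and 5.70 with BRD1 siRNA, against 6.23, 6.56 and 6.07 with control siRNA and 6.45 in untreated cells. TMEM9B, a membrane protein of lysosomes, was at 7.91, 8.11 and 8.45 with BRD1 siRNA, against 8.44, 8.57 and 8.80 with control siRNA and 8.88 in untreated cells. FHIP2A showed no overlap, whereas KICS2 and TMEM9B were lower within each pair but overlapped across pairs.

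Among the enzymes, CSNK1G1, a casein kinase of the gamma type, was at 6.51, 6.64 and 6.49 with BRD1 siRNA, against 7.20, 7.11 and 6.80 with control siRNA and 6.92 in untreated cells. AMACR, a racemase of branched-chain fatty acid and bile acid oxidation, was at 5.00, 5.16 and 5.15 with BRD1 siRNA, against 5.52, 5.46 and 5.44 with control siRNA and 5.55 in untreated cells. Neither overlapped, but AMACR lies close to the median of all values, 5.47, and its brighter probe set differed by only -0.10 in the Dharmacon 2 pair. All 4 CSNK1G1 probe sets were lower in every pair, and 1 of them was past 1.2-fold in all 3.

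IL10RB, a shared receptor chain of the interleukin-10 and type III interferon families, differed by -0.43, -0.28 and -0.41 in the Qiagen, Dharmacon 1 and Dharmacon 2 pairs, the most even of the 14 lower genes apart from SAR1B and KICS2, though both of its probe sets are of the type that may read related transcripts. SFR1, a protein of DNA repair, differed by -0.61, -0.71 and -0.27, and 1 of its probe sets is of that type too. ARMC1, an armadillo repeat protein of mitochondria, differed by -0.71, -0.50 and -0.32. TLCD1, a membrane protein that affects the lipid makeup of the plasma membrane, differed by -0.42, -0.95 and -0.27. These 4 genes showed no overlap between the groups. Of the 14 lower genes, 12 did not overlap, beside 5.19% of all genes that were lower without overlap and 3.38% that were higher, and since the rule used these values the count is a description.

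The 3 genes that were higher with BRD1 siRNA each rest on 1 probe set. IFIT1, an interferon-induced protein that binds foreign RNA, was at 7.25, 7.10 and 7.22 with BRD1 siRNA, against 6.81, 6.76 and 6.94 with control siRNA and 6.09 in untreated cells. Control siRNA thus stood above untreated cells and BRD1 siRNA above both, without overlap, and the mean difference between BRD1 and control siRNA was 0.36 (SD 0.08). SLC10A4, a vesicular member of the bile acid transporter family, was at 5.66, 5.47 and 5.53 with BRD1 siRNA, against 5.29, 4.87 and 5.16 with control siRNA and 5.06 in untreated cells. SLC7A3, a transporter of cationic amino acids, was at 6.58, 6.56 and 6.67 with BRD1 siRNA, against 5.87, 6.10 and 6.39 with control siRNA and 6.22 in untreated cells. In SLC7A3 the BRD1 siRNA arrays lay within 0.11 of each other, while the control arrays ranged over 0.52.

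**Figure D2:**
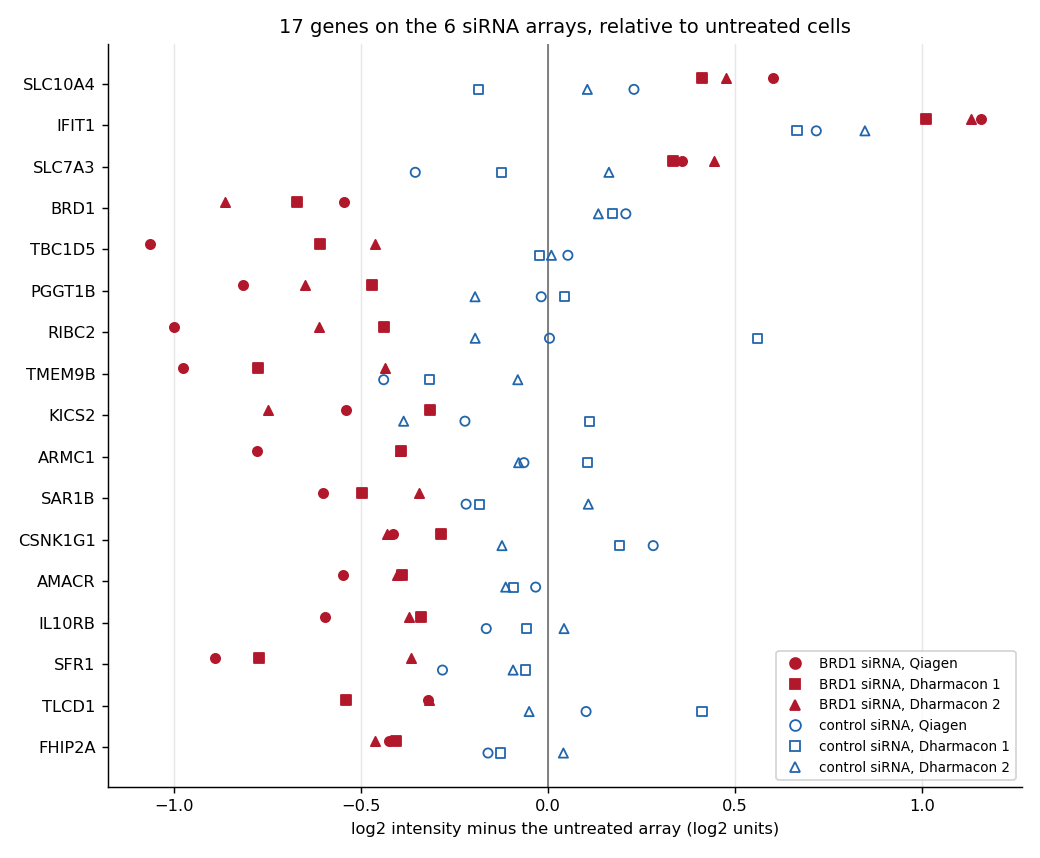
Log2 intensity minus the untreated array (x axis, log2 units) for the 17 shared genes (y axis), with the 3 BRD1 siRNA arrays as filled red symbols and the 3 control siRNA arrays as open blue symbols, a symbol shape for each pair. In 15 of the 17 genes no red symbol overlaps the blue range, beside 3.38% of all genes higher and 5.19% lower without overlap. In 12 the untreated array lies within the range of the controls, a share not counted over all genes. The same arrays entered the rule, so both counts are a description.

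In 12 of the 17 shared genes the untreated array lay within the range of the control arrays, as it did for TBC1D5 and PGGT1B. The same arrays entered the rule, and the share over all genes was not counted. In BRD1 and IFIT1 all controls lay above untreated cells, and in TMEM9B, AMACR and SFR1 all lay below. Every probe set of the 17 genes pointed the way of its gene in all 3 pairs, and in 10 genes every probe set was past 1.2-fold in all pairs. In the 5 genes with 1 probe set, which are among the 10, both follow from the rule. For the others the rule used the mean of the same probe sets, so these counts are a description. The smallest of the pair differences came from the Dharmacon 2 pair in 12 genes, from the Qiagen pair in 3 and from the Dharmacon 1 pair in 2. Just inside the threshold stood TLCD1 and FHIP2A with smallest differences of 0.267 and 0.264, and just outside stood PILRB at 0.2627, NR1H3 at 0.262 and SAR1A at 0.261.

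The condition on untreated cells removed most genes. Without it, 13 genes were higher past 1.2-fold in all 3 pairs (0.0713% of all) and 60 lower (0.329%), of which 10 and 46 were left out. MBNL1, a regulator of splicing, was at 8.29, 8.21 and 8.24 with BRD1 siRNA, against 7.48, 7.41 and 7.87 with control siRNA and 8.33 in untreated cells. SNX10, a sorting nexin of endosomes, was at 6.35, 6.92 and 6.53 with BRD1 siRNA, against 7.51, 7.64 and 7.10 with control siRNA and 6.71 in untreated cells. For MBNL1 the BRD1 siRNA arrays stood slightly below untreated cells and all controls further below. For SNX10 all controls stood above untreated cells, with the BRD1 siRNA arrays on both sides of them. These 2 genes are named after their values were seen.

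The study set its threshold of 1.5-fold on single probes, whereas here it was set on the gene mean and required in every pair. On this reading 2 genes, BRD1 and TMEM192, were lower in every pair (0.0110% of all genes) and 0 were higher. TMEM192, a membrane protein of lysosomes, was at 5.30, 6.06 and 5.31 with BRD1 siRNA, against 6.90, 6.99 and 6.06 with control siRNA and 6.17 in untreated cells. Its pair differences of -1.60, -0.93 and -0.74 were larger than those of BRD1 in 2 of the 3 pairs. The Dharmacon 1 siRNA array differed from untreated cells by only -0.11, and it equalled the Dharmacon 2 control, so the groups overlapped. TMEM192 therefore did not meet the rule, and it is read by a single probe set, of a type that may be shared between transcripts.

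Over the whole table, the pairs differed widely in how many genes moved. In the Qiagen pair 395 genes were higher and 246 lower past 1.5-fold (2.17% and 1.35% of all genes), and in the Dharmacon 1 pair 436 and 178 (2.39% and 0.976%). In the Dharmacon 2 pair the counts were 50 and 60 (0.274% and 0.329%), while the gene mean of BRD1 was lowest relative to its control there. That order of the pairs rests on probe set 11748646, since probe set 11731092 differed least in the Dharmacon 2 pair and probe set 11731093 most in the Dharmacon 1 pair. The Qiagen and Dharmacon 1 control arrays differed from each other by more than 1.5-fold in 23 genes (0.126%), but from the Dharmacon 2 control in 790 and 846 genes and from untreated cells in 704 and 748.

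**Figure D3:**
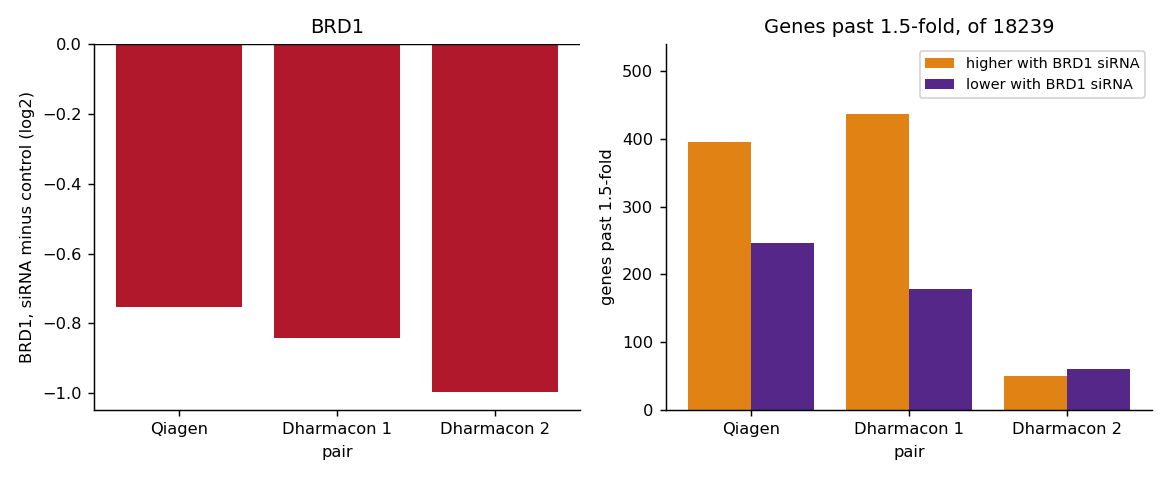
Left, the BRD1 difference (BRD1 siRNA minus control siRNA, log2 units, y axis) in each pair (x axis), 1 value per pair. Right, the number of genes past 1.5-fold (y axis) in the same pairs, higher in orange and lower in purple, with 50 and 60 in the Dharmacon 2 pair, where the gene mean of BRD1 differed by -0.998, an order that 1 of the 3 BRD1 probe sets carries.

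Of the 245 genes that were higher past 1.5-fold in both the Qiagen and the Dharmacon 1 pair, 182 (74.3%) had both control arrays at least 1.2-fold below untreated cells, and 104 (42.4%) had both BRD1 siRNA arrays at least 1.2-fold above them. SERP1, a protein that protects newly made membrane proteins in the endoplasmic reticulum, was at 10.31, 10.41 and 10.36 with BRD1 siRNA, against 8.56, 8.496 and 10.42 with control siRNA and 10.50 in untreated cells. The low values are those of the Qiagen and Dharmacon 1 controls. Of the 75 genes that were lower in both pairs, 44 (58.7%) had both BRD1 siRNA arrays at least 1.2-fold below untreated cells and 36 (48.0%) had both controls above. The 245 and 75 genes were chosen on these same siRNA and control arrays, so the shares are partly set by that choice. The same shares over all genes were not counted.

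Genes chosen in 2 pairs were then read in the pair that was not used. Genes at least 1.2-fold lower in both Dharmacon pairs numbered 111, and 93 of them (83.8%) were lower in the Qiagen pair, where 48.5% of all genes were lower. Of 127 genes lower in the Qiagen and Dharmacon 2 pairs, 100 (78.7%) were lower in the Dharmacon 1 pair, beside 46.9% of all genes. Of 800 genes lower in the Qiagen and Dharmacon 1 pairs, 424 (53%) were lower in the Dharmacon 2 pair, beside 59.4% of all genes. The Dharmacon 2 pair therefore did not follow the direction of the other pairs more often than the whole table did.

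The same held for genes that were higher. Of 1192 genes at least 1.2-fold higher in the Qiagen and Dharmacon 1 pairs, 306 (25.7%) were higher in the Dharmacon 2 pair, beside 39.4% of all genes. The Qiagen and Dharmacon 1 pairs followed each other closely: of 1587 genes at least 1.2-fold lower in the Dharmacon 1 pair alone, 1402 (88.3%) were lower in the Qiagen pair. The shares above 78% for these 2 pairs are therefore no higher than 1 of them gives for the other. Their control arrays lay close together, and the part of the controls in these shares was not tested.

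**Figure D4:**
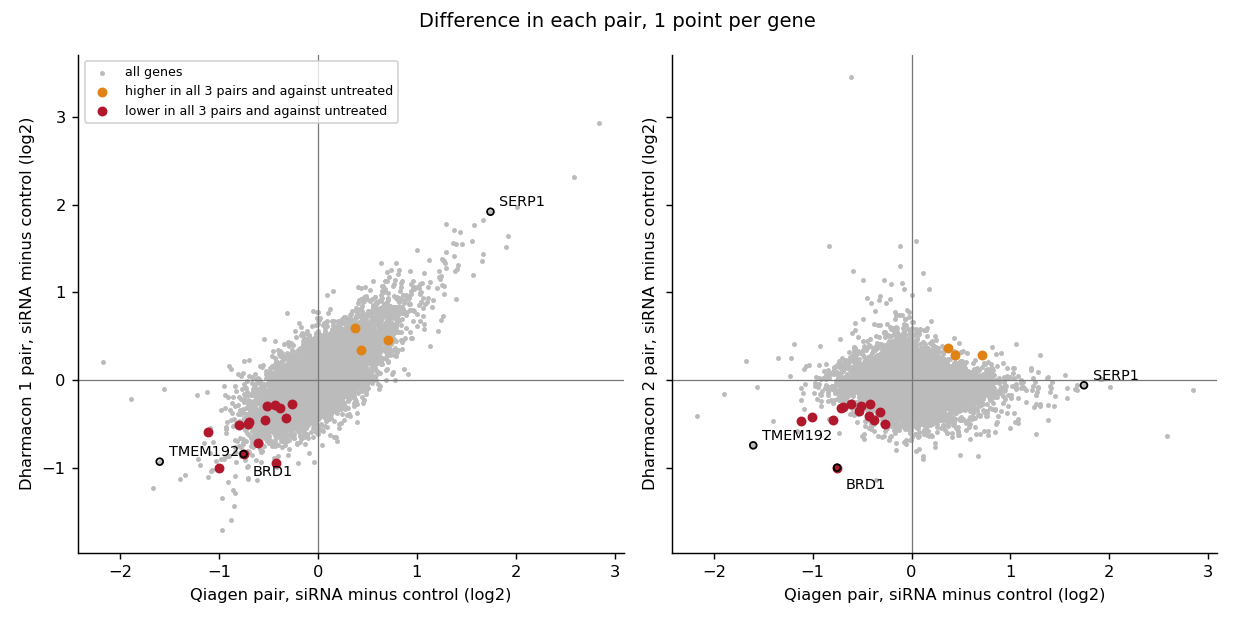
Difference between BRD1 siRNA and control siRNA (log2 units) of each gene in the Qiagen pair (x axes) against the Dharmacon 1 pair (left) and the Dharmacon 2 pair (right), with all 18239 genes in grey, the 3 shared higher genes in orange and the 14 shared lower genes in red. SERP1 lies at 1.75 and 1.92 in the left panel and at -0.06 on the y axis of the right one, while BRD1 is low in both.

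The limma fit over the 3 pairs called 0 of 18239 genes at an adjusted p of 0.05 (0% of all). At an unadjusted p under 0.05 it had 597 genes higher (3.27%) and 874 lower (4.79%). After BRD1 the smallest p values belonged to TCTN2, TRIM47, ANXA1 and ZBTB25, each lower in all 3 pairs, with mean differences between -0.50 and -0.60 and adjusted p of 0.607 in limma. None of these 4 is a shared gene, since in each at least 1 BRD1 siRNA array stood at or above untreated cells. TCTN2, a protein of the ciliary transition zone, was at 5.92, 6.46 and 5.88 with BRD1 siRNA, against 6.65, 6.93 and 6.48 with control siRNA and 6.31 in untreated cells. The limma test of a difference in effect between the Qiagen and Dharmacon kits called 0 genes (241 at an unadjusted p under 0.05, or 1.32%), and gave BRD1 an unadjusted p of 0.428. The Qiagen kit has 1 pair, so the spread in this test comes from the 2 Dharmacon pairs.

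Apart from BRD1, the genes of its acetyltransferase complexes and of related complexes differed little. Of 14 such genes measured, BRD1 included, 2 were higher and 3 lower in all 3 pairs. These were KAT8 and JADE2 higher, and BRD1, ING4 and JADE1 lower. The shares were 14.3% and 21.4%, beside 11.0% and 16.2% of all genes, and limma called 0 of the 14 after adjustment. KAT7, the catalytic partner of BRD1, differed by -0.07, -0.05 and 0.11 in the Qiagen, Dharmacon 1 and Dharmacon 2 pairs, with a mean of -0.00 (SD 0.10). ING4, a subunit that reads methylated histone H3, differed most after BRD1, by -0.23, -0.40 and -0.02. BRPF1 and BRPF3, which take the place of BRD1 in related complexes, had mean differences of 0.02 and 0.03. Of 25 proteins found with BRD1 by immunoprecipitation, 3 were higher and 7 lower in all pairs, and limma called 0 after adjustment.

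Genes beside BRD1 on chromosome 22 differed less than BRD1. ZBED4, the next gene on the map, differed by -0.40, -0.20 and -0.07 in the Qiagen, Dharmacon 1 and Dharmacon 2 pairs, and CRELD2 by 0.20, 0.02 and 0.03. Beside TMEM192 on chromosome 4, KLHL2 differed by -0.16 and MSMO1 by 0.15 in the mean. No neighbour shown here passed 1.2-fold in 1 direction in every pair.

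Genes of the siRNA machinery and of the response to double-stranded RNA were read as groups. Of 14 genes of RNA interference, 3 were higher and 4 lower in all pairs (21.4% and 28.6%, beside 11.0% and 16.2% of all genes). Their median mean difference was -0.04 beside -0.00 over all genes. AGO2, the enzyme that cuts siRNA targets, differed by -0.34, -0.43 and -0.11. Of 26 genes of double-stranded RNA sensing and interferon signalling, 3 were higher and 2 lower in all pairs (11.5% and 7.69%), and the median was 0.00. IFIT1 was the only one of the 26 past 1.2-fold in all pairs. RIGI, a sensor of double-stranded RNA, differed by 0.58, 0.36 and -0.16 in the Qiagen, Dharmacon 1 and Dharmacon 2 pairs, and EIF2AK2, a kinase that double-stranded RNA activates, by 0.28, 0.39 and -0.01. BST2, an interferon-induced membrane protein, differed by -0.28, 0.04 and -0.39.

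The cell cycle, HOX, cholesterol and stress lists are given by their counts, beside the 16.2% of all genes that were lower and the 11.0% that were higher in all 3 pairs, and limma called 0 genes of any list after adjustment. Of 28 mitosis genes, 10 were lower and 2 higher in all pairs (35.7% and 7.14%), and the median mean difference was -0.06. KIF23, a kinesin of cytokinesis, differed by -0.63, -0.45 and -0.04 in the Qiagen, Dharmacon 1 and Dharmacon 2 pairs. Of 29 genes of DNA replication and the G1/S transition, 7 were lower and 1 higher in all pairs (24.1% and 3.45%), also with a median of -0.06. Of 29 HOX genes, 11 were lower and 0 higher in all pairs (37.9% and 0%), with a median of -0.14, led by HOXD8 at -0.61, -0.67 and -0.16.

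Of 18 genes of cholesterol synthesis, 8 were higher and 1 lower in all pairs (44.4% and 5.56%), with a median of 0.09. SQLE, which makes squalene epoxide, differed by 0.53, 0.53 and 0.09, and INSIG1, a sterol-regulated membrane protein, by 0.16, 0.30 and 0.29. Of 28 genes of stress and the unfolded protein response, 9 were higher and 2 lower in all pairs (32.1% and 7.14%), with a median of 0.11. SLC7A11, the cystine transporter, differed by 0.81, 0.83 and 0.14. KIF23, HOXD8, SQLE and SLC7A11 differed least in the Dharmacon 2 pair, but INSIG1 differed least in the Qiagen pair. Other genes with large mean differences in their lists also went another way. NUSAP1 of mitosis differed by -0.21, -0.10 and -0.43, and GINS1 of DNA replication by -0.63, -0.04 and -0.26. The medians of the Dharmacon 2 pair over the 14 lists of gene function lay between -0.09 and 0.02.

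**Figure D5:**
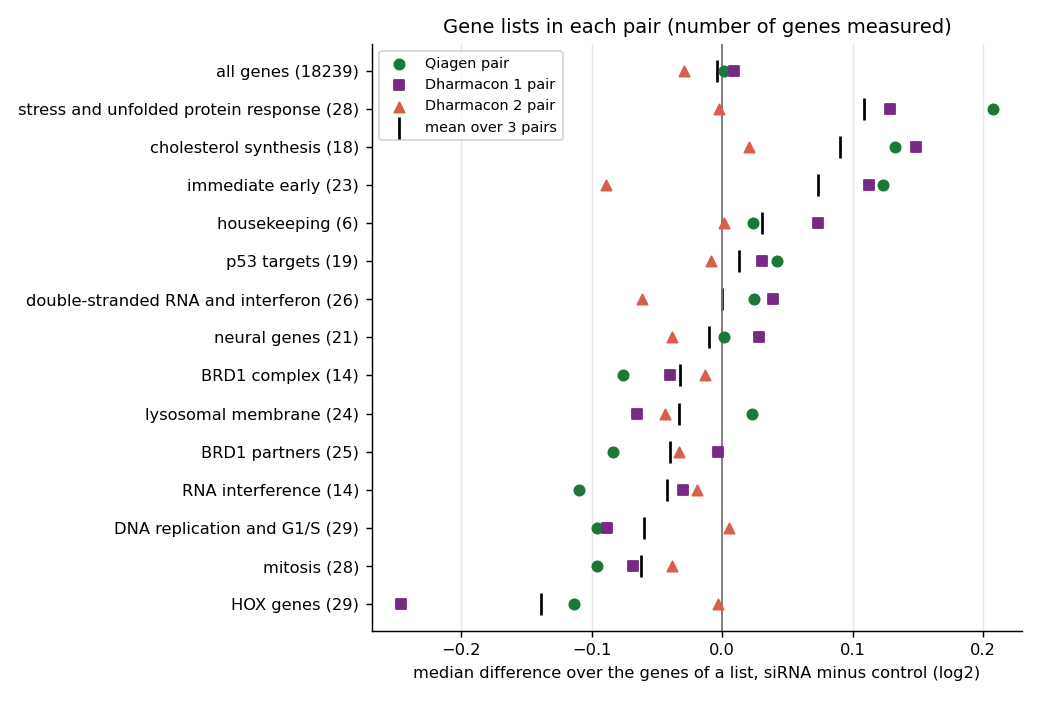
Median difference between BRD1 siRNA and control siRNA over the genes of each list (x axis, log2 units) in the Qiagen, Dharmacon 1 and Dharmacon 2 pairs (symbols) and for the mean over the pairs (vertical bars), with 14 lists of gene function and their number of genes on the y axis and all genes at the top. HOX genes lie lowest at a median of -0.14 and stress genes highest at 0.11, and the medians of the Dharmacon 2 pair lie between -0.09 and 0.02 in the lists shown.

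The lists that follow are set beside the same 11.0% of all genes higher and 16.2% lower in all pairs. Of 19 p53 targets, 2 were higher and 3 lower (10.5% and 15.8%, median 0.01). For 23 immediate early genes the counts were 4 and 2 (17.4% and 8.70%, median 0.07). For 21 neural genes they were 2 and 2 (9.52% each, median -0.01). For 24 genes of the lysosomal membrane they were 3 and 4 (12.5% and 16.7%, median -0.03). For 6 housekeeping genes they were 2 and 2 (33.3% each, median 0.03). HPRT1, a housekeeping gene of purine salvage, differed by 0.77, 0.78 and 0.13 in the Qiagen, Dharmacon 1 and Dharmacon 2 pairs, whereas GAPDH differed by -0.03, -0.04 and -0.01.

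HEK293T markers were bright on the 6 siRNA arrays, with VIM between 12.91 and 13.21, NEFL between 10.07 and 10.63 and KRT18 between 9.40 and 9.67. PAX2, EYA1, LHX1 and KRT8 lay around or below the median of all values. The median difference of the 8 HEK293T markers measured was -0.20, -0.10 and -0.12 in the Qiagen, Dharmacon 1 and Dharmacon 2 pairs, and its part in the results was not tested. Defining markers of other cell types, such as ALB of liver and PTPRC of blood cells, lay between 3.30 and 4.30 on all 6 arrays, near the lowest values of the arrays.

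The 13 shared lower genes other than BRD1 were also read in the cells that overexpress BRD1, which share the untreated array with the rule. With BRD1-S, 6 of the 13 stood above untreated cells, with BRD1-L 8, and with both forms 5, beside 48.7%, 48.7% and 33.8% of all genes. Nothing particular to the 13 genes is read from these counts. IL10RB differed from untreated cells by 0.21 with BRD1-S and 0.43 with BRD1-L, and SFR1 by 0.18 and 0.29. TBC1D5 differed by 0.08 and -0.27, and PGGT1B by -0.08 and -0.00. SLC7A3, which was higher with BRD1 siRNA, differed by -0.51 with BRD1-S and by -2.07 with BRD1-L. The other higher genes did not share this, with IFIT1 at 0.16 and 0.48 and SLC10A4 at -0.31 and 0.43. Each overexpression value comes from 1 array.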

How the data were processed

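The authors deposited 1 log2 value for each of 49386 probe sets on 9 arrays, made from intensities normalized to the array mean. How probes were summarised and background removed is not given in the sources used here, and the number of arrays limits the precision. Platform annotation gave 45259 probe sets 1 gene symbol, 1327 several and 2800 none. A gene was the mean of its probe sets with 1 symbol (18239 genes). Array medians ran between 5.41 and 5.53.

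BRD1 siRNA and control siRNA arrays of the same kit and number were taken as pairs, since deviations from the group means correlated at 0.333, 0.224 and 0.333 within pairs, although the Dharmacon 1 siRNA array correlated at 0.215 with the Qiagen control. The study's supplement numbers the kits the other way round from the labels, which were followed here. limma 3.58.1 in R 4.3.3 was fitted to the 6 siRNA arrays with the pair as a block, two-sided, with Benjamini-Hochberg adjustment at 0.05, and was tested on simulated data. The rest, the sign-flip test included, was done in Python 3.11.15 with pandas 2.3.3, matplotlib 3.10.9 and numpy 2.4.6.

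The rule, the gene lists and the tests were chosen with earlier results of these data known. Genes named were BRD1, its complex and neighbours, the shared genes, those past 1.5-fold in all pairs and their neighbours, those nearest the threshold, the 5 smallest limma p values and up to 4 genes of each list with the largest mean difference. MBNL1, SNX10, INSIG1, GAPDH and HOXB7 were added after their values were seen. Alternatives were other fits, scalings, probe sets, thresholds and controls, and each pair or array left out. Promoter windows came from RefSeq (GRCh38.p14).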

Additional observations from a re-analysis of the deposited data

Results flagged for a closer look

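In BRPF3, a relative of BRD1 in acetyltransferase complexes, the Qiagen pair differed by 0.28 and the Dharmacon 1 and Dharmacon 2 pairs by -0.10 and -0.09. In ALG12, a mannosyltransferase gene near BRD1, the Qiagen pair differed by 0.046 and the Dharmacon pairs by -0.10 and -0.10. The 2 genes were flagged because the Qiagen pair went the opposite way to both Dharmacon pairs. Other listed genes did so too, such as HOXB7 at 0.20, -0.23 and -0.11, so this does not set the 2 genes apart. The share over all genes was not counted. The limma test of that difference gave unadjusted p of 0.0946 for BRPF3 and 0.464 for ALG12, both with an adjusted p of 1.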

How the results depend on the processing

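The limma count of 0 calls held under 14 of 16 alternatives, with or without the pair as a replicate block. It ranged between 0 and 2487 when a pair was left out (2487, of which 1438 higher and 1049 lower, without the Dharmacon 2 pair) and between 0 and 33 when 1 array was left out of the fit with no replicate block (33 without the Dharmacon 2 control). Of the 2487 genes, 37.3% had the same direction in the Dharmacon 2 pair, where 39.4% of all genes were higher and 59.4% lower. Past 1.2-fold in that direction there were 90, while of all 18239 genes 535 were at least 1.2-fold higher and 1237 lower in that pair. The 2487 genes thus did not keep their direction there more often than the whole table. BRD1 was lower in every fit, with differences between -0.92 and -0.75, at -0.86 with no replicate block, and passed the threshold only without the Dharmacon 2 pair (-0.80, adjusted p 0.000915 in limma). The 17 shared genes and TMEM192 kept their direction in all alternatives run. These genes, BRD1 among them, were chosen for the same direction in every pair. Leaving out a pair, dropping the replicate block or using the mean of the controls therefore could not reverse them. Only the other scalings and, for genes with several probe sets, the brightest probe set could have changed the direction.

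Counts of shared genes (main: 3 higher, 14 lower) depended on the rule. They were 9 higher and 23 lower with the brightest probe set of a gene, 15 and 61 with any probe set, 897 and 1408 for a difference of any size, 0 and 4 at 1.3-fold, 13 and 60 with no condition on untreated cells, and 32 and 25 against the mean of the controls. Against the Dharmacon 2 control and the untreated array alone, an alternative chosen after seeing the data, they were 6 and 30. Each array centred gave 4 and 10, with 3 and 8 of the same genes. Leaving out a pair gave 6 to 419 higher and 28 to 287 lower, the most without the Dharmacon 2 pair. Counts past 1.5-fold in all pairs (main: 0 higher, 2 lower) became 0 and 4 with the brightest probe set, 1 and 6 with any probe set, 36 and 4 against the mean of the controls, 0 and 0 at 2-fold, and 0 to 245 higher and 3 to 75 lower when a pair was left out. With the brightest probe set, 1 of the 2 genes past 1.5-fold remained. The causes were not tested. No detection calls were used, and 15 of the 17 shared genes lie above the median of all values.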

Other observations

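The 59 genes other than BRD1 that were at least 1.2-fold lower in all 3 pairs, with no condition on untreated cells, were read in the overexpressing cells. BRD1-S and BRD1-L cells both stood above untreated cells in 28 of them (47.5%), beside 33.8% of all genes, and by at least 1.2-fold in 9 (15.3%), beside 3.34% of all genes. Genes past 1.2-fold in all 3 pairs, in either direction, also varied more between arrays. Their median range over the control arrays was 0.43, against 0.19 over all genes, and the part of this spread in the counts was not tested. ANXA1, a phospholipid-binding protein, was 1.81 above untreated cells in BRD1-S cells and 2.48 above in BRD1-L cells. It was at 4.12, 4.42 and 5.01 with BRD1 siRNA in the Qiagen, Dharmacon 1 and Dharmacon 2 pairs. Control siRNA gave 4.70, 4.96 and 5.41, and untreated cells 4.94. The siRNA groups overlapped, and the Dharmacon 2 array with BRD1 siRNA stood above untreated cells. TCTN2 was 0.37 and 0.52 above untreated cells in BRD1-S and BRD1-L cells. Each of these cells has 1 array and they share the untreated array, so the values have no replicate check. ANXA1 and TCTN2 are among the 5 genes with the smallest limma p.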
